A study of Drosophila melanogaster with 2 samples.

Results

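The Enhancer of split complex of Drosophila melanogaster holds 7 genes for basic helix-loop-helix (bHLH) repressors, E(spl)mdelta-HLH, E(spl)mgamma-HLH, E(spl)mbeta-HLH, E(spl)m3-HLH, E(spl)m5-HLH, E(spl)m7-HLH and E(spl)m8-HLH. They were taken by name, out of 13945 protein-coding genes annotated on the 6 main chromosome arms, together with every deposited region from the first to the last of them and 5 kb to either side. On genome build dm6 that interval is 53388 bp of arm 3R, from 25992621 to 26046008. The regions come from chromatin immunoprecipitation and sequencing (ChIP-seq) with an antibody against GFP, in 2 biological replicates, numbered 2 and 3, of whole Camta-MiMIC-GFP embryos of mixed sex aged 0 to 24 h. In that strain an eGFP exon in an intron of Camta makes a Camta-eGFP fusion. Camta is the fly calmodulin-binding transcription activator. There was no second genotype, treatment or stage. Whole embryos mix all cell types and a day of development, so a region cannot be assigned to a cell type or an age.

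Binding of a Notch ligand to the Notch receptor frees the receptor's intracellular part, which enters the nucleus and joins the DNA-binding protein Suppressor of Hairless, Su(H), and the coactivator Mastermind. The bHLH genes of the complex are classical targets of this switch. Their proteins bind E-boxes and N-boxes in DNA, recruit the corepressor Groucho through a short motif at their end, and hold down the proneural genes in cells that are not to become neural precursors. Between them lie genes of the Bearded family, small proteins that dampen Notch ligand signalling, and at one end lies groucho (gro) itself.

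The deposited lists give each region a signal value, which is the authors' own and is used here to rank regions within a list, and a q value. The optimal IDR list, of the regions that passed the authors' irreproducible discovery rate threshold, has 4033 regions, of which 8 had their summit in the complex. The relaxed lists hold peaks and background candidates before that threshold. The complex held 31 of the 30000 regions of the relaxed list of both replicates pooled, 30 of the 30000 of replicate 2 and 25 of the 29279 of replicate 3. No file gives read counts, so depth is unknown. An HLH gene was called as having a region when a summit lay within 500 bp of its start site, and each of the 7 genes has 1 annotated start site.

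The sequences around 5 of the 8 optimal IDR summits are shown first: the 4 within 500 bp of an HLH start, and the summit in the wide stretch between mbeta and malpha, which lies far from every start. The values below refer to them. Each is the plus strand of dm6 (RefSeq Release 6 assembly), from 50 bases before to 50 bases after an optimal IDR summit. Capitals mark matches, on either strand, to 13 motifs: the Su(H) sites CGTGGGAA, TGTGGGAA, CGTGAGAA and TGTGAGAA taken as 1 motif, the E-box CANNTG and its forms CAGCTG and CAGGTG, the N-box CACNAG, the CGCG core, the DRE TATCGATA and its core CGATA, Motif 1 GGTCACAC, the TATA box TATAAA, the GAGA element GAGAG, the initiator TCAGT and the zld site CAGGTA. The special E-boxes overlap CANNTG and the DRE overlaps its core.
E(spl)mdelta-HLH, chr3R:25997300-25997400: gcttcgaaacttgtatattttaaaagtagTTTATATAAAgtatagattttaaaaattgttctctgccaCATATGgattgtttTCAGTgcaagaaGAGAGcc
between E(spl)mbeta-HLH and E(spl)malpha-BFM, chr3R:26009066-26009166: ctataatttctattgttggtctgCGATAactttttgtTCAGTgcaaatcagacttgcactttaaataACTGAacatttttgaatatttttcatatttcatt
E(spl)m3-HLH, far summit, chr3R:26021308-26021408: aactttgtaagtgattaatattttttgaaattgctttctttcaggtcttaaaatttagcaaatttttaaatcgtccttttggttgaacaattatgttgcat
E(spl)m3-HLH, near summit, chr3R:26021519-26021619: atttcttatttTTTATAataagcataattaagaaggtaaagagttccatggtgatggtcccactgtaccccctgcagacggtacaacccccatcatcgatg
E(spl)m7-HLH, chr3R:26036594-26036694: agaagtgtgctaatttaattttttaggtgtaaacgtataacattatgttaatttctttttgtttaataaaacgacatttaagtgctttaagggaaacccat

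These windows are rich in A and T. The share of G and C was 24.8% at the far m3 summit, 25.7% at the m7 summit, 26.7% at the summit between mbeta and malpha, 29.7% at the mdelta summit and 40.6% at the near m3 summit. The mean over the 8 summits of the complex was 31.4%, against 35.9% over all 4033 optimal IDR summits. The windows of the far m3 summit and of m7 held no match to any of the 13 motifs.

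Of the 7 HLH genes, 3 had an optimal IDR summit within 500 bp of the start site, namely mdelta, m3 and m7. Over all protein-coding genes the share was 18.8%. The 3 genes are not neighbours: mdelta is the first member, m3 the fourth and m7 the sixth along the chromosome. In each of them the summit lay upstream. In the pooled relaxed list 5 of 7 had a summit within that distance, mgamma and mbeta in addition, against 53.2% of all protein-coding genes. Replicate 2 gave 5 of 7 against 52.6%, and replicate 3 gave 3 of 7 against 51.3%, so in the relaxed lists the members stood near the share of all genes.

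**Figure D1:**
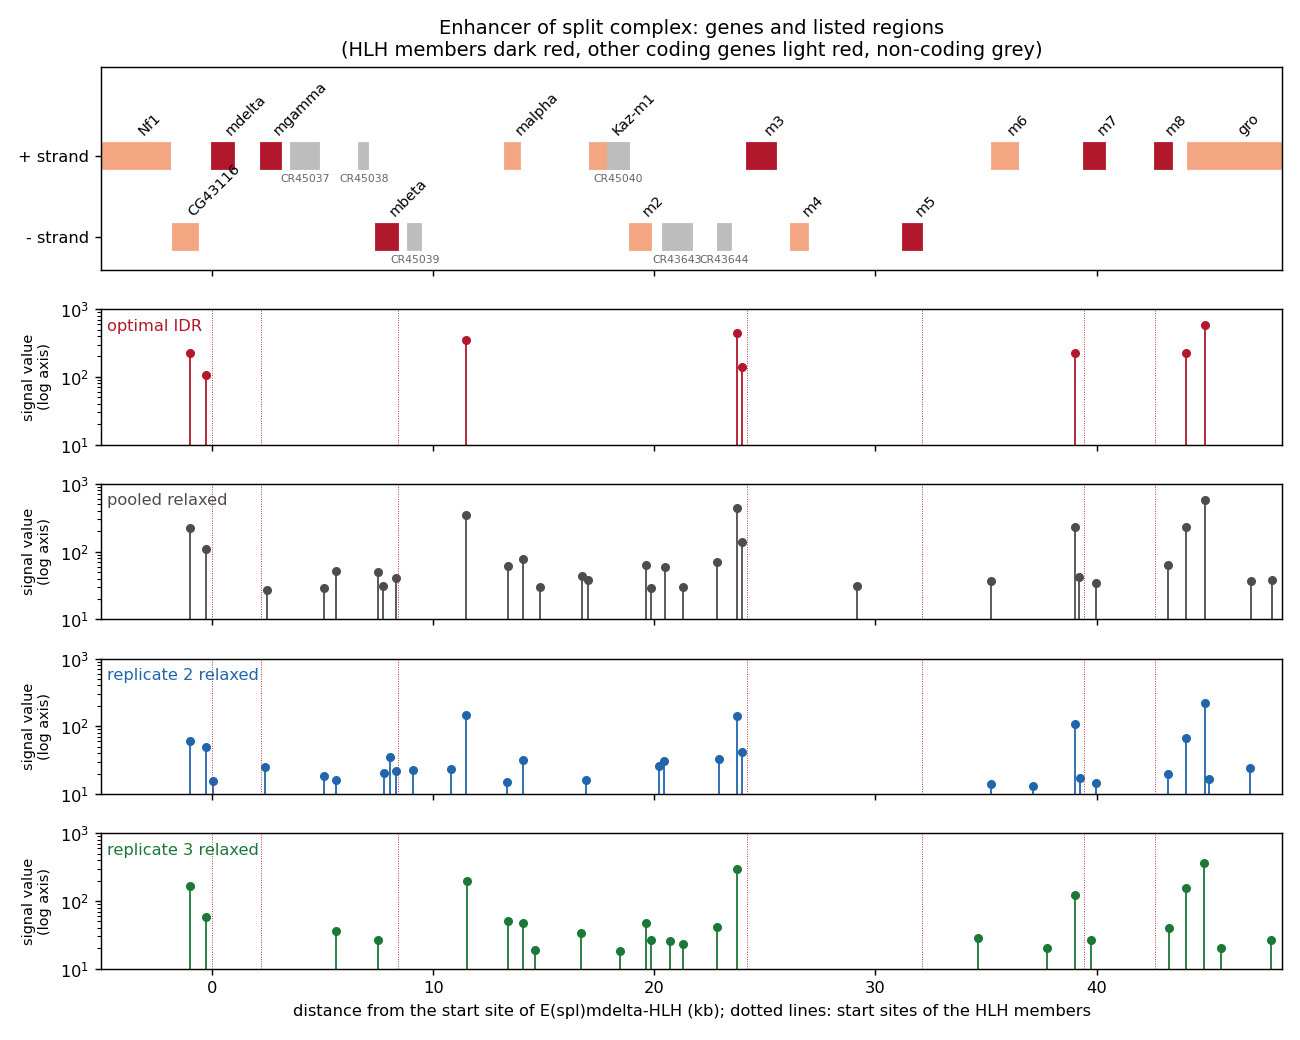
Genes of the complex (top, by strand) and the signal value of each deposited region (log axis) at its summit, against the distance in kb from the start site of E(spl)mdelta-HLH, in the optimal IDR list, the pooled relaxed list and the relaxed list of each replicate. The 8 optimal IDR regions stand at or above 107.448, the other 23 pooled regions at 77.8167 or below, and the stretch over m4, m5 and m6 is nearly empty in all 4 lists.

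E(spl)m3-HLH (FBgn0002609, plus strand, 26021823 to 26023127) had the highest signal of any member. Its far region, from 26021216 to 26021363, had its summit at 26021358, 465 bp upstream of m3. It had a signal of 436.815, which placed it at 245 of the 4033. The long non-coding RNA gene lncRNA:CR43644, transcribed the other way, starts closer, 282 bp from that summit, so the region cannot be assigned to m3 alone. A further optimal IDR region, from 26021380 to 26021605, peaked at 26021569, 254 bp upstream of m3, with a signal of 139.633 (rank 2201). The 2 summits are 211 bp apart.

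Replicate 2 listed both m3 summits, the far one at 26021354 with a signal value of 140.99 (rank 384) and the near one at exactly 26021569 with 42.0434 (rank 3744). Replicate 3 listed 1 region between them, from 26021377 to 26021480, with its summit at 26021381, a signal value of 295.739 and rank 197. That summit is 23 bp from the pooled far summit, but the region starts past the end of the pooled far region, so the far region has no overlap in replicate 3. The near one overlaps it with a summit 188 bp away. Both replicates thus placed a region of high rank beside the far summit, and only replicate 2 listed a separate near summit.

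E(spl)m7-HLH (FBgn0002633, plus strand, 26037038 to 26038019) had an optimal IDR region from 26036432 to 26036855, with its summit at 26036644, 394 bp upstream, a signal value of 228.16 and rank 959. Replicate 2 listed a summit 15 bp away with a signal of 106.83 (rank 690). Replicate 3 had its summit at the same base, with 121.438 and rank 1249. The pooled list held 2 weaker summits at m7, 1 at 26036844, 194 bp upstream, with a signal value of 42.7317, and 1 at 26037608 in the coding exon with 34.7786. The upstream of these overlapped in both replicates the region of the stronger summit, which had ranks 690 and 1249 there. Replicate 2 also listed a separate weak summit 22 bp from the one at 26036844, with 17.0068 and rank 19351. The pooled region at 26037608 overlapped a region in each replicate, with summits 3 bp away in replicate 2 and 246 bp away in replicate 3. That replicate 3 summit, at 26037362, lay 324 bp downstream of the m7 start, with 26.9053 and rank 14036.

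E(spl)mdelta-HLH (FBgn0002734, plus strand, 25997621 to 25998633) had the weakest optimal IDR region of the complex, from 25997138 to 25997561. Its summit at 25997350, 271 bp upstream of mdelta and 354 bp upstream of CG43116 on the other strand, had a signal value of 107.448 and rank 3345, where the lowest value of the whole list is 95.3405. Replicate 2 placed it 2 bp away with 48.9443 (rank 2907), and replicate 3 placed it 20 bp away with 57.1168 (rank 4113). Replicate 2 also listed a weak summit 58 bp downstream of the start site, with a signal value of 15.8572.

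The other 4 members had no optimal IDR summit within 500 bp. E(spl)mgamma-HLH (FBgn0002735, plus strand, 25999851 to 26000761) had a pooled summit in its coding exon, 259 bp downstream of the start, with a signal of 27.393, which is 29998 of 30000 in rank. Replicate 2 had a summit 154 bp downstream with 25.2284, and replicate 3 listed no region there. The nearest optimal IDR summit to mgamma was that of mdelta, 2501 bp upstream.

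E(spl)mbeta-HLH (FBgn0002733, minus strand, 26005046 to 26006023) had 3 weak pooled summits within the gene: 40.369 in the 5′ UTR, 30.5985 in the coding exon and 50.2725 in the 3′ UTR. The one within 500 bp of the start, at 95 bp, had rank 15436 in the pooled list. It was present in replicate 2, with a summit at 96 bp, and not in replicate 3. A stronger summit of replicate 2 lay in the coding exon, 354 bp downstream of the start, with 34.8865, rank 5149 and a q value of 0.0067. Replicate 3 listed no region there. It did list a region further along the gene, with its summit at 26005107 in the 3′ UTR, a signal of 26.5412 and rank 14429. That region overlapped the pooled regions of the coding exon and the 3′ UTR, and replicate 2 overlapped both of these as well. The nearest optimal IDR summit to mbeta, at 26009116, was 3093 bp upstream.

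E(spl)m5-HLH (FBgn0002631, minus strand, 26028854 to 26029735) had no summit nearer to its start than 2540 bp in any of the 4 lists. Its nearest pooled summit was 2970 bp away, at 26026765, with a signal value of 30.6306, and this region was the one pooled region of the complex that neither replicate listed. Its nearest optimal IDR summit, that of m7, was 6909 bp away. The gene lies in the widest gap between optimal IDR summits in the complex, 15075 bp from the near m3 summit to the m7 summit. Each relaxed list had 2 summits in that gap, while the gap of 12242 bp before m3 held 10 pooled summits.

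E(spl)m8-HLH (FBgn0000591, plus strand, 26040240 to 26041008), the gene altered in the original Enhancer of split mutant, had no summit within 500 bp in any of the 4 lists either. Its nearest pooled summit lay in its coding exon, 623 bp downstream of the start, with a signal of 63.2167 (rank 7283), and both replicates listed it (ranks 14222 and 6971). The nearest optimal IDR summit was 1417 bp downstream, at the start of gro.

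**Figure D2:**
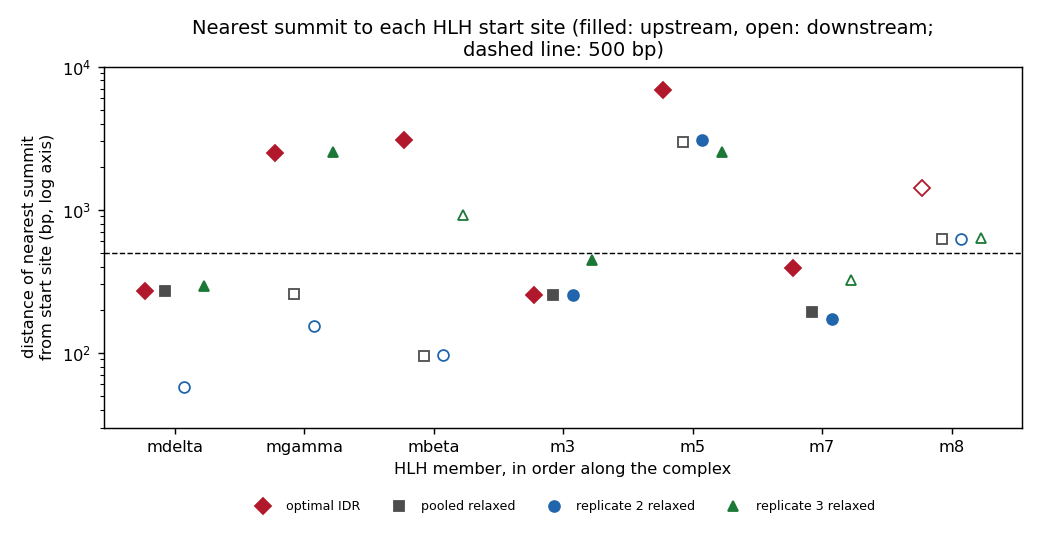
Distance in bp (log axis) from the start site of each HLH gene to the nearest summit in each of the 4 lists, with filled symbols upstream and open symbols downstream of the start, and a dashed line at 500 bp. Optimal IDR summits are under the line for mdelta, m3 and m7, and m5 has no symbol under 2540 bp.

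The other optimal IDR regions of the complex lay at its ends and in 1 wide intergenic stretch. The summit at 26009116, between mbeta and E(spl)malpha-BFM (a Bearded family gene), had a signal value of 348.038 and rank 414. It was 1777 bp upstream of malpha, 3093 bp upstream of mbeta and the one optimal IDR summit of the complex further than 500 bp from every start site. Replicate 2 gave it 145.687 and rank 366, and replicate 3 gave it 199.855 and rank 485, with summits 8 and 51 bp away.

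At the distal end, gro had 2 regions. The stronger, from 26042362 to 26042644, had the highest signal of the complex, 579.607, and rank 118. Its summit lay in an intron, 131 bp upstream of an internal start site, and ranked 128 in replicate 2 and 112 in replicate 3. The other, at 26041657, 79 bp upstream of the first start of gro, had a signal value of 228.328 and ranked 957, with ranks 1590 and 773 in replicates 2 and 3. At the proximal end a summit in an intron of CG43116, at 25996624, had 222.48 and rank 1001, with ranks 1938 and 706.

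Within the complex, 4 of the 8 optimal IDR summits were within 500 bp of an HLH start, and 7 of 8 were within 500 bp of a start site of any gene, against 53.3% of all optimal IDR summits. By place, 6 summits were intergenic and 2 were in introns, and none was in a coding exon. The median signal value of the 8 was 228.244, against 146.704 for the whole list. When the 6 arms were divided into 2504 tiles of 53388 bp, the median tile held 1 optimal IDR summit and the fullest held 12, and 1.52% of tiles held 8 or more.

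The replicates were compared by presence in each relaxed list. Of the 8 optimal IDR regions, 8 overlapped a region of replicate 2, where the share over all 4033 was 99.9%. Replicate 3 overlapped 7 of 8, against 4032 of 4033 (100% to 3 digits). The far m3 region is therefore the single optimal IDR region of the genome without an overlap in replicate 3, and the position of the replicate 3 summit given above shows how near it is. Both replicates overlapped 7 of 8, against 99.9%. Among the 4033 strongest regions of each replicate, 6 of 8 were found in both, against 76.5%. The mdelta region was missing there for its rank of 4113 in replicate 3, and the far m3 region for its lack of overlap.

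**Figure D3:**
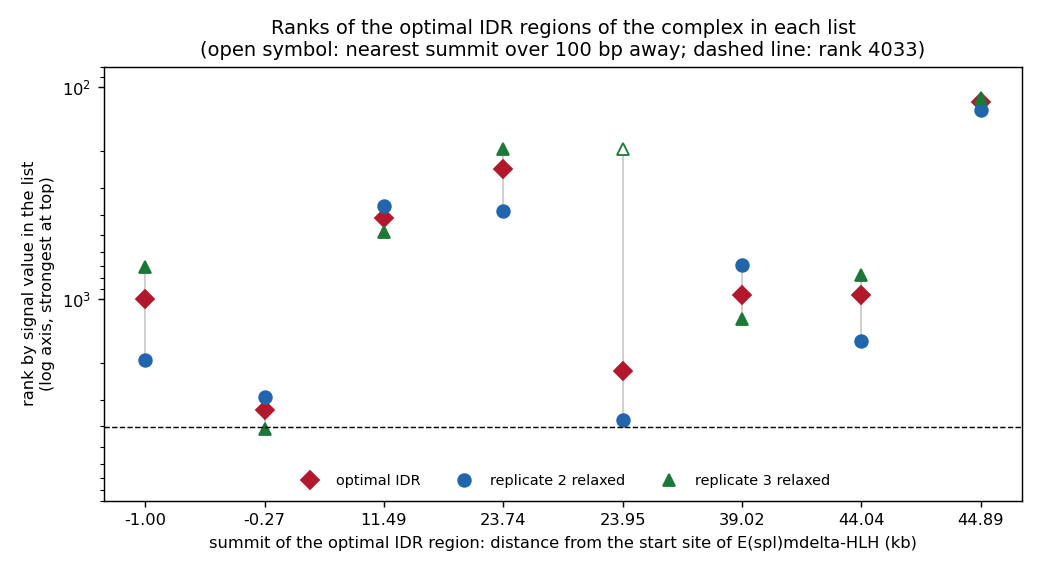
Rank by signal value (log axis, strongest at the top) of each of the 8 optimal IDR regions in the optimal IDR list and of the nearest summit in each replicate's relaxed list, ordered along the complex by distance in kb from the start site of E(spl)mdelta-HLH. The gro intron region ranks 118, 128 and 112, while the near m3 region has rank 3744 in replicate 2 and its nearest replicate 3 summit, 188 bp away, is that of the far region (open symbol).

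Below the threshold, 23 pooled regions of the complex were not in the optimal IDR list. The optimal IDR list held 8 of the complex's 31 pooled regions, against 13.4% of all pooled regions. Signal values of the 23 ran from 27.393 to 77.8167 and ranks from 5366 to 29998. One had a q value of 0.01 or less, the strongest of them, at 26011698 beyond the end of malpha. Summits of 8 lay in coding exons, 2 in 5′ UTRs, 1 in a 3′ UTR, 2 in non-coding exons and 10 in intergenic sequence.

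Beside those described at the HLH genes, the weaker pooled regions fell into a few places. Between mgamma and mbeta lay summits at 26002685, with a signal value of 28.7924 and 1484 bp downstream of the start of lncRNA:CR45037, and at 26003239, with 51.9873 and 1039 bp upstream of lncRNA:CR45038. The former was in replicate 2 only and the latter in both replicates.

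Around malpha, the summit at 26011698, 805 bp downstream of its start, had 77.8167 and was in both replicates. The one at 26012445, 1552 bp downstream, had 29.6445 and was in replicate 3 only. Upstream of Kaz-m1, the summits at 348 and 112 bp, at 26014373 and 26014609, had 43.8269 and 37.8048, and both overlapped 1 region of each replicate. All of these but the one at 26012445 were in both replicates.

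From m2 to m3, a summit at 26017249 in the coding exon of E(spl)m2-BFM had 62.8144 and was in replicate 3 only. The one at 26017449 in its 5′ UTR had 29.1549 and was in both. Its replicate 2 overlap was 49 bp, with the summit of that region 373 bp away. Further on, 26018101 had 58.6185, 631 bp upstream of m2, and was in both, with the replicate 3 summit 251 bp away. The one at 26018898 had 29.9388 and was in replicate 3 only. That at 26020468, just past the end of lncRNA:CR43644, had 71.0303 and was in both. Beyond m5, 26032823 had 36.2504, 88 bp upstream of m6, and was in replicate 2 only. In coding exons of gro, 26044602 had 37.1724 and was in replicate 2 only, and 26045528 had 37.9734 and was in replicate 3 only.

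Replicate 2 overlapped 26 of the 31 pooled regions, against 74.7% of all pooled regions. Replicate 3 overlapped 24, against 80.2%, and both overlapped 20, against 59.1%. Among the 23 below the threshold, 13 were in both, 5 in replicate 2 only, 4 in replicate 3 only and 1 in neither. A further 3 regions of replicate 2 and 4 of replicate 3 overlapped no pooled region, with signal values of at most 23.2595 and 28.0911 and no rank better than 10666 and 12949. Those of replicate 2 were at 26006693 in lncRNA:CR45039, at 26008425, 1352 bp upstream of it, and at 26034730, 1819 bp past the start of m6. Those of replicate 3 were at 26016088 in the shared end of Kaz-m1 and lncRNA:CR45040, at 26032275, 636 bp upstream of m6, at 26035379, 1659 bp upstream of m7, and at 26043263 in a 5′ UTR of gro. Over the 20 regions in both, Spearman's rho of the replicates' signal values was 0.753, and over the 13 below the threshold it was 0.149. This describes these regions only, since they share 2 libraries and some share a replicate region. Of the 20, 7 are optimal IDR regions, which the authors' threshold had selected for reproducibility between replicates. The 2 values of rho are therefore not set against each other.

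The Bearded family genes and the Kazal-type protease inhibitor gene Kaz-m1, which are interleaved with the HLH genes, had no optimal IDR summit at their starts. In the pooled relaxed list malpha had a summit 97 bp downstream of its start with a signal value of 61.6426, and E(spl)m6-BFM 1 at 88 bp upstream with 36.2504. E(spl)m2-BFM had summits 21 and 221 bp downstream and Kaz-m1 112 and 348 bp upstream, with the values given above. E(spl)m4-BFM had none, its nearest pooled summit being 2186 bp away. Of the long non-coding RNA genes, lncRNA:CR43644 shares the m3 regions, and lncRNA:CR43643 had a pooled summit 411 bp from its start with 29.9388. The others, lncRNA:CR45037, lncRNA:CR45038, lncRNA:CR45039 and lncRNA:CR45040, had no pooled summit within 500 bp. Nf1, the neurofibromin gene whose last part reaches into the interval, starts outside it and had 2 pooled summits at its start, the nearer with 91.6896. With relatives elsewhere in the genome (Brd, Tom, Ocho and BobA), 1 of 10 Bearded family and other complex genes had an optimal IDR summit at a start, and it was gro. With 18.8% over all protein-coding genes, this count is not read as a property of the list.

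Su(H) sites are the DNA elements through which Notch acts on these genes, so their positions are shown beside the summits. Each sequence below is 32 bases of dm6 on the gene's own strand, with the match to one of the 4 Su(H) site spellings or its reverse complement in capitals.
E(spl)mgamma-HLH, 488 bp upstream, chr3R:25999351-25999382 (+): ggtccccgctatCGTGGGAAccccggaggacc
E(spl)mgamma-HLH, 294 bp upstream, chr3R:25999545-25999576 (+): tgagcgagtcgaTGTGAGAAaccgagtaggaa
E(spl)mgamma-HLH, 269 bp upstream, chr3R:25999570-25999601 (+): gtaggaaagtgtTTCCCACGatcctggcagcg
E(spl)mbeta-HLH, 292 bp upstream, chr3R:26006296-26006327 (-): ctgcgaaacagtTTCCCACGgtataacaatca
E(spl)m5-HLH, 309 bp upstream, chr3R:26030025-26030056 (-): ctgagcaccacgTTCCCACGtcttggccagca
E(spl)m5-HLH, 146 bp upstream, chr3R:26029862-26029893 (-): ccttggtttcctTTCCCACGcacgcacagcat
E(spl)m8-HLH, 224 bp upstream, chr3R:26040004-26040035 (+): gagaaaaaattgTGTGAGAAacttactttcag
E(spl)m8-HLH, 199 bp upstream, chr3R:26040029-26040060 (+): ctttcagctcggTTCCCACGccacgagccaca

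Within 500 bp upstream of the start, 4 of the 7 HLH genes held a match, mgamma 3, m5 and m8 2 each and mbeta 1, where 5.06% of all protein-coding genes held 1 or more. The 4 genes with a match were the 4 without an optimal IDR summit, and the 3 with a summit, mdelta, m3 and m7, held no match. In the 1000 bp upstream, 1 of those 3 held a match as well as all 4 of the others. Over all genes matches and summits were not arranged in this way: 5.23% of the 2619 genes with an optimal IDR summit held a match within 500 bp, and 5.02% of the 11326 without. With 7 genes this is a description only. The matches lay between 1616 and 6763 bp from the nearest optimal IDR summit.

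**Figure D4:**
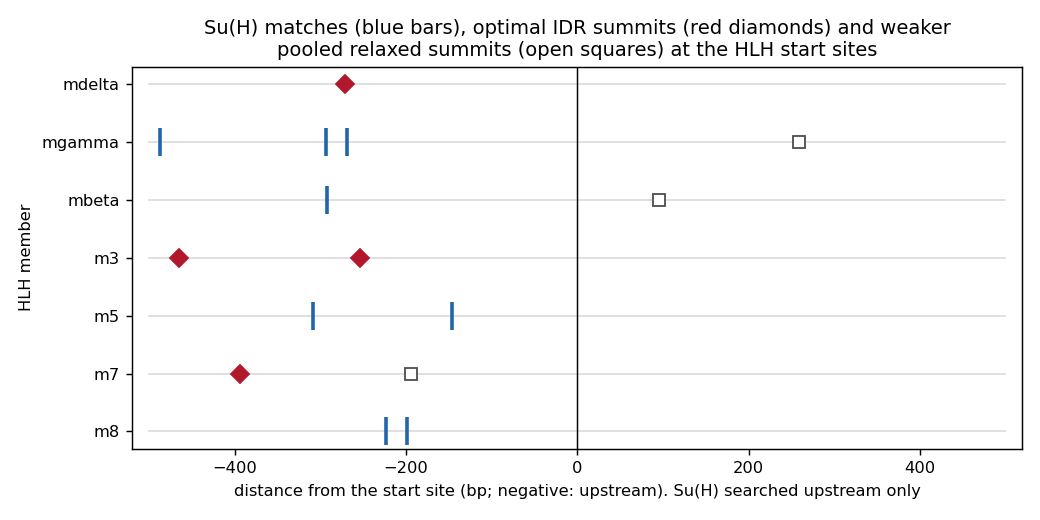
Positions within 500 bp of the start site of each HLH gene, in bp with upstream negative, of Su(H) matches (blue bars, searched upstream only), optimal IDR summits (red diamonds) and weaker pooled relaxed summits (open squares). Diamonds stand on the lines of mdelta, m3 and m7, and bars on those of mgamma, mbeta, m5 and m8.

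In the windows within 50 bp of the 8 optimal IDR summits there was no Su(H) match, where 0.843% of all optimal IDR windows held one. The TATA box was matched in 3 of 8 windows, against 17.6% of all, and CANNTG in 2 of 8, against 37.9%. The initiator was matched in 2 of 8 against 19.3%, the GAGA element in 1 of 8 against 10.1% and the DRE core in 1 of 8 against 17.5%. The CGCG core, which is part of the box that proteins of the Camta family bind in vitro, was matched in none of the 8, where 11.6% of all optimal IDR windows held it. The N-box (10.6% of all), the whole DRE (2.16%), Motif 1 (1.29%) and the zld site (1.76%) were matched in none of the 8 either. These counts are of letters in windows and say nothing of which protein was bound.

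The wider Notch pathway was described from a list of 34 genes. Of these, 11 had an optimal IDR summit within 500 bp of a start, beside 18.8% of all protein-coding genes. Among the ligands, the receptor and the factors that process them, it was 6 of 21. The strongest was rumi, which encodes a glucosyltransferase acting on Notch, with a signal value of 340.542. It was followed by the gamma-secretase component gene aph-1 with 257.648, the Notch inhibitor gene numb with 180.63, the ubiquitin ligase gene neur with 144.822 and pen-2, for another gamma-secretase component, with 101.236. The rumi summit also lay within 500 bp of starts of CG7029 and Usp12-46. The aph-1 summit was likewise near a start of Snx21, and the pen-2 summit near one of Ote. These regions cannot be assigned to the pathway genes alone. The receptor gene N had 98.006 at its start (rank 3865), and a stronger optimal IDR summit inside the gene, with 414.28 and rank 276. The neur gene also held a stronger one inside it, with 256.594 and rank 767. The ligand gene Delta had no optimal IDR summit within 77000 bp of its start, and its nearest pooled summit lay at 840 bp. Replicate 2, but not replicate 3, listed a summit 8 bp downstream of the Delta start, with 21.4633 and rank 12476.

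Among the nuclear factors it was 5 of 13. After gro came skd, which encodes a Mediator kinase module subunit, with 175.746, mam (Mastermind) with 168.471, nej, which encodes the acetyltransferase CBP, with 166.023, and Su(H) with 105.816. The skd summit also lay within 500 bp of a start of Pdss2, so it cannot be assigned to skd alone. The mam gene also held a stronger optimal IDR summit inside it, with 328.632. Hairless (H), which encodes the antagonist of Su(H), had no optimal IDR summit within 12244 bp and a pooled summit at its start with 68.6207 and rank 6417. The signal of the far m3 summit, 436.815, was above that of every pathway gene with an optimal IDR summit at its start except gro. This holds for start sites only. The corepressor gene list entry Smr, without an optimal IDR summit at a start, held one inside the gene with 450.875 and rank 227. Weaker ones lay inside CtBP (165.654), fng (115.86) and Nedd4 (102.432), pathway genes that also had none at a start.

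**Figure D5:**
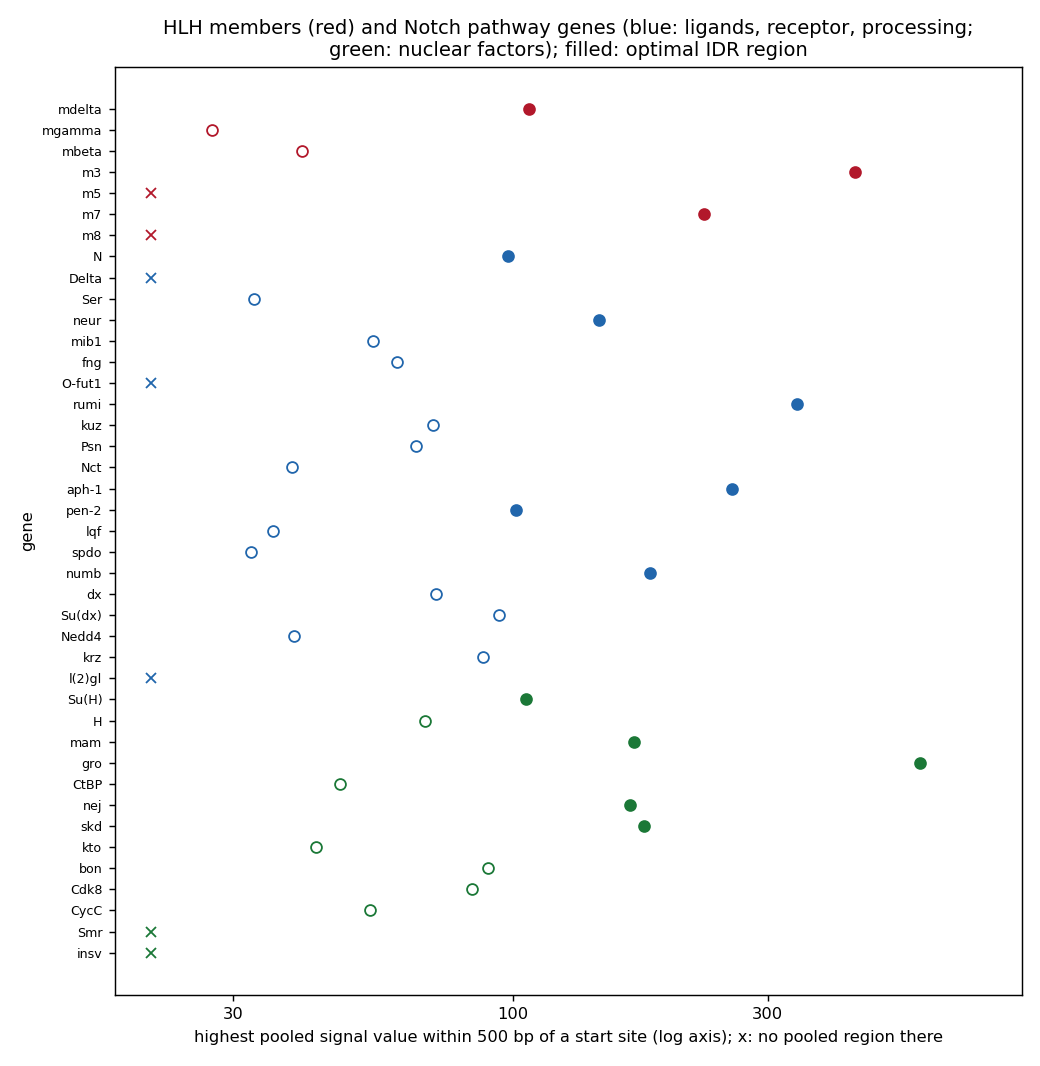
Highest pooled signal value (log axis) within 500 bp of a start site of the 7 HLH genes (red) and of the 34 Notch pathway genes (blue for ligands, receptor and processing, green for nuclear factors), filled where an optimal IDR region lies there and marked x where the pooled list has none. Filled symbols stand at 98.006 (N) or above, with gro at 579.607 and m3 at 436.815.

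Of the proneural activators and their partners, which the HLH repressors act on, 1 of 11 had an optimal IDR summit at a start, the broadly expressed bHLH gene da with 216.645, beside 18.8% of all protein-coding genes. None of the other 10, achaete, scute and atonal included, had one. Of 6 other genes for bHLH-Orange repressors, the class to which the HLH members belong, none had an optimal IDR summit at a start and 5 had a pooled one, beside 18.8% and 53.2% of all protein-coding genes. Away from its starts, cwo of this class held an optimal IDR summit inside the gene, with 270.683 and rank 685.

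The 3 genes whose strongest optimal IDR signal at a start was nearest in rank to that of m3 (rank 245) were CG4820 and RpS25, a ribosomal protein gene, which share a region of signal value 437.144 and rank 244, and CG5953 with 439.117 and rank 243. The region shared by CG4820 and RpS25 ranked 253 in replicate 2 and 251 in replicate 3, and that of CG5953 ranked 219 and 269. The far m3 summit, at 384 and 197, was less even between the replicates than either. This was not particular to m3, since another start-site region of like rank, 239, was less even again, at 375 and 170.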

How the data were processed

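Peak lists of both replicates on dm6 were used. Per the file headers and records, each replicate and the pool of both have a relaxed list, built from alignments plus 1 further file that all these lists share, and the optimal IDR list was in turn built from the relaxed ones. The sources used here name neither aligner nor peak caller. Each region's signal value is the authors' own, as deposited, and its scale is not stated, so lists were not compared by signal. Its q value is a deposited −log10. Depth is unknown. Lists on dm3 were not used.

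Ensembl release 115 on BDGP6.54 gave genes, without transposable elements and pseudogenes, and the RefSeq Release 6 assembly gave sequence. Presence was an overlap of 1 bp or more. No test was run, since there was 1 group. The replicates are labelled biological. All 7 HLH genes and all genes of the interval were named, with listed genes that had an optimal IDR summit at a start (up to 6 a list), N, Delta, Su(H), H, mam and gro, and the 3 genes nearest in rank to the strongest member. Smr, CtBP, fng, Nedd4 and cwo were named for optimal IDR summits inside the gene. Genes whose starts share a summit with a called Notch pathway gene were also named. Of the Bearded list, BobB and BobC were not matched. The members and lists were chosen with earlier results of these data known. Functions were tested on simulated data. Python 3.11.15, NumPy 2.4.6, SciPy 1.17.1 and matplotlib 3.10.9 were used.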

Additional observations from a re-analysis of the deposited data

How the results depend on the processing

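The count of HLH genes with an optimal IDR summit, 3 at 500 bp, was 0 at 250 bp and 3 at 1000 bp, since the nearest of those summits lies 254 bp from a start. The pooled relaxed count, 5, was 2 at 250 bp and 6 at 1000 bp. The share over all protein-coding genes also changes with the distance and is not given at 250 and 1000 bp. There is no optimal IDR list of a single replicate, so the 4033 strongest relaxed regions of each replicate stood in for it. Among these, 2 to 3 HLH genes had a summit within 500 bp, and the complex held 6 to 8 regions. The whole relaxed lists of single replicates gave 3 to 5 HLH genes and 25 to 30 regions. The lower values were those without replicate 2. The Notch pathway count was 10 among the 4033 strongest regions of either replicate. The share over all genes is not given for the strongest regions. Without the 5 kb flanks, 4 of the 8 optimal IDR regions remained, since the others lie outside the first and last member. Within 100 bp of the summit in place of 50, CANNTG was matched at 4 of the 8 summits and the CGCG core at 2. Over all optimal IDR windows of that width the shares were 62.6% and 23.5%, and the wider window alone adds matches. The other alternatives run for these counts, among them 10 kb flanks, the nearest start site only, q values of 0.01 or less, other overlap rules, other numbers of strongest regions and a narrower motif window, moved none of them by more than 1.5 times. After seeing the data, the Su(H) search was repeated over 250 bp, which gave 2 genes, and 1000 bp, which gave 5. Over all protein-coding genes the shares were 2.54% and 9.93%. No paired analysis was possible because there was 1 group and no contrast. The lists carry no depth, so a gene without a listed region is not shown to be unbound.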
